A study of Mus musculus with 48 samples.

Results

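The mitochondrial ribosome genes studied here are the 80 genes of the deposited count table whose symbol is Mrpl or Mrps followed by a number, out of 14125 genes in the table. Of these, 50 carry an Mrpl symbol and 30 an Mrps symbol, and 78 stand for proteins while Mrpl23-ps1 and Mrps36-ps2 are annotated as pseudogenes. They were chosen by name alone, and lie on 17 chromosomes of GRCm38. The filter on low counts kept 78 of them for testing, and Mrps18b and Mrpl53 were not tested.

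The mitochondrial ribosome translates the few messages that the mitochondrial genome encodes, all of them for core subunits of the respiratory chain and ATP synthase. Its ribosomal RNAs come from the mitochondrial genome, but its proteins are encoded in the nucleus, made in the cytosol and imported. A part of these proteins has a counterpart in the bacterial ribosome and the rest is specific to mitochondria. Skeletal muscle depends on this machinery for oxidative capacity, and glucocorticoids are known to cause loss of muscle mass and insulin resistance.

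RNA was measured in mixed gastrocnemius, a calf muscle, of male C57BL6J mice. The Cort_ATGLi group (n = 14) drank water with corticosterone at 100 ug/ml, the main glucocorticoid of mice, for 2 weeks and ate chow with atglistatin at 571 mg/kg, an inhibitor of adipose triglyceride lipase. Cort_CON mice (n = 14) had the same water and the control diet, and the labels call 9 of them diabetic and 5 nondiabetic. EtOH_ATGLi mice (n = 10) had vehicle water with 1% ethanol and the atglistatin diet. EtOH_CON mice (n = 10) had vehicle water and the control diet. No group carries a transgene or gene deletion, per the labels. Each library was taken as 1 mouse because it has its own glucose and insulin values, which the labels do not state outright.

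Libraries held 10453888 to 24034481 counts. Fkbp5, a direct target of the glucocorticoid receptor and a check of the treatment, averaged 332.4 ± 75.5 CPM (counts scaled to library size, mean ± SD) in Cort_CON and 28.7 ± 6.97 CPM in EtOH_CON, and 272.8 ± 50.2 CPM in Cort_ATGLi and 49.4 ± 15.5 CPM in EtOH_ATGLi. The tissue carried its defining genes, with the skeletal actin gene Acta1 at 30005.7 to 35276.8 CPM and the muscle creatine kinase gene Ckm at 11711.7 to 13325.1 CPM as group means. EtOH_CON p01 and Cort_ATGLi p41 correlated least with their own group, with median r of 0.952 and 0.957 over all tested genes, and EtOH_ATGLi p13 was the one library with odd counts. Member counts are given below with and without these libraries where that matters.

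Members were present at a moderate and even level. The median member had 36.7 CPM over the 48 libraries, at the 80.6th percentile of the tested genes, whose median was 8.24 CPM. Levels of 10 to 100 CPM were found for 64 of the 80 members, 8 were higher and 8 lower. Counts come from transcript ends, so these CPM are not scaled by transcript length. Mrpl42, a mitochondria-specific protein of the large subunit, was highest at 271.4 CPM. It was followed by Mrpl33 at 147.5 CPM and Mrpl34 at 135.9 CPM, both small large-subunit proteins with bacterial counterparts.

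At the other end, Mrps36-ps2 averaged 0.592 CPM, Mrpl23-ps1 1.28 CPM and Mrpl23 1.86 CPM. Mrpl23 encodes a large-subunit protein near the peptide exit, and its low value is uncertain because a pseudogene of it was counted separately and reads could be split between the copies. The same holds for Mrps36 at 3.17 CPM, whose protein is now assigned to the 2-oxoglutarate dehydrogenase complex rather than the ribosome. The Mrps18 paralogs differed in level. Mrps18a and Mrps18c had 32.4 and 37.3 CPM, while Mrps18b had 0.29 CPM with 0 to 14 counts per library and 10 libraries at 0. Mrpl53 was similar to Mrps18b, at 0.236 CPM and 0 to 12 counts, and both lie near the limit of detection.

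Cytosolic ribosomal protein genes were set beside the members for general level only. The 78 cytosolic genes had a median of 240.1 CPM, 6.53 times the member median, and summed to 5.82 times the member sum. Only 5 of the 80 members exceeded the lower quartile of the cytosolic genes, 117.0 CPM. Part of the distributions nevertheless overlapped, since the lowest cytosolic gene stood at 8.04 CPM and the highest at 1013.1 CPM.

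**Figure D1:**
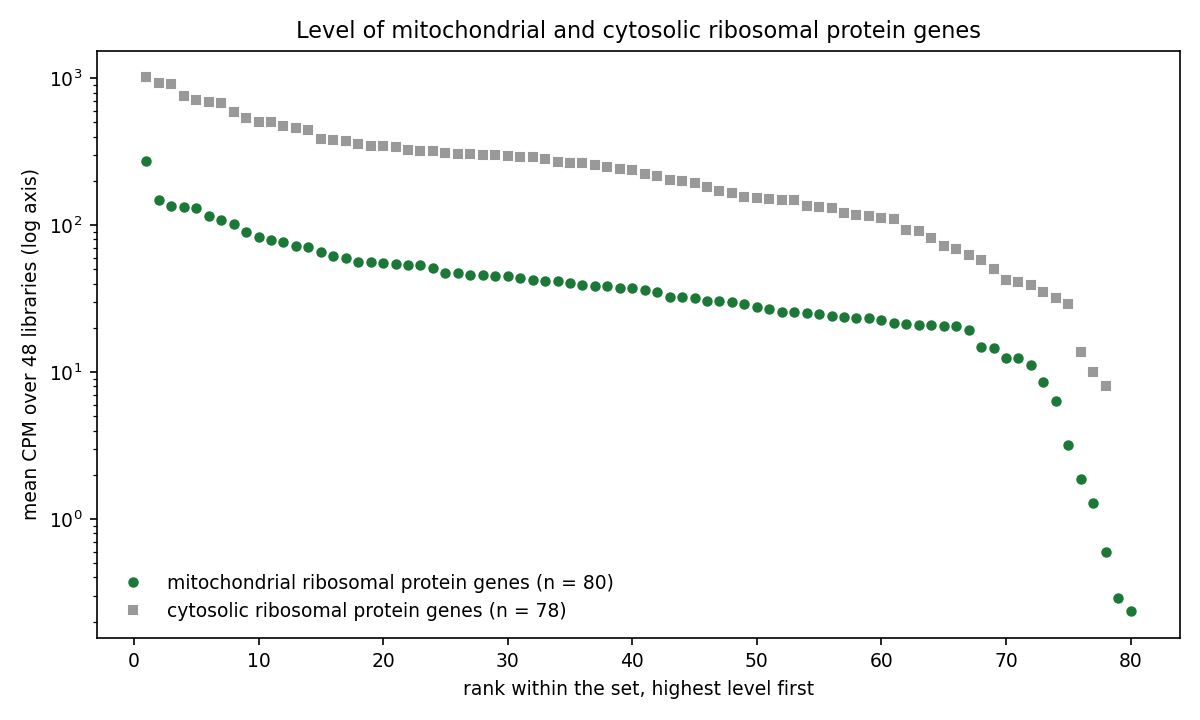
Mean CPM over 48 libraries (log axis) of each mitochondrial ribosomal protein gene (green circles, n = 80) and each cytosolic ribosomal protein gene (grey squares, n = 78), by rank within its set. Members run from 271.4 CPM down to 0.236 CPM, with 64 of 80 between 10 and 100 CPM, and the cytosolic genes lie above them at every rank they share.

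The summed level of the members changed little between groups. Members summed to 3662 ± 543 CPM in Cort_ATGLi (lowest 3098, median 3450, highest 5049), 3834 ± 459 CPM in Cort_CON (3047, 3836 and 4587), 3483 ± 240 CPM in EtOH_ATGLi (3106, 3461 and 3838) and 3565 ± 222 CPM in EtOH_CON (3216, 3603 and 3868). The groups overlapped over most of their range. Both corticosterone groups spread more widely than both vehicle groups, and the 2 highest libraries of Cort_ATGLi, p24 and p25, reached 5049 and 4612 CPM. With counts scaled by library totals alone, without the composition correction of TMM (trimmed mean of M values), the sums were 3644 ± 302, 3637 ± 297, 3604 ± 202 and 3673 ± 201 CPM in the same order of groups. The TMM factors of the corticosterone libraries ran from 0.853 to 1.22, against 0.988 to 1.11 in the vehicle libraries, so part of the wider spread moved with the scaling.

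**Figure D2:**
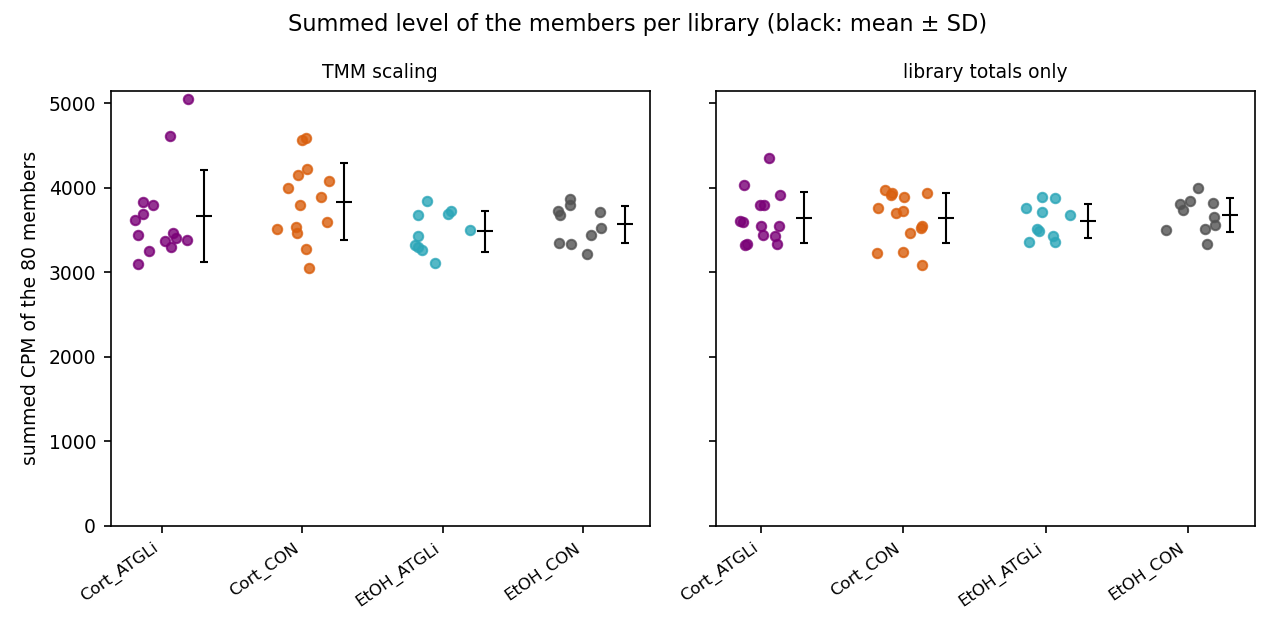
Summed CPM of the 80 members in each library of the 4 groups, with TMM scaling (left) and with library totals only (right); black marks are mean ± SD. Cort_ATGLi p24 and p25 stand highest at 5049 and 4612 CPM with TMM scaling, and the group means lie between 3483 and 3834 CPM.

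On the control diet, corticosterone moved a minority of the members and by small amounts. In Cort_CON against EtOH_CON, 16 of the 78 members tested rose and 2 fell at an adjusted p under 0.05 in edgeR's quasi-likelihood test, which is 23.1% of them. With library totals only, 8 rose and 11 fell, and the median of all tested genes was negative with that scaling, as given below. With TMM scaling, 38.4% of all 12592 genes tested passed in the same comparison, 18.9% higher and 19.5% lower. The members' share lay below this background, and their 2 falls of 78 stand beside 19.5% of all genes that fell. The median log2 fold change of the members was 0.12 and that of all tested genes 0.00, and 57 members had a positive and 21 a negative value. The median size of the change was 0.13 on the log2 scale for members and 0.24 for all genes, and 1 member (Mrpl23, 0.50 ± 0.21, adjusted p = 0.0528), against 23.6% of all genes, exceeded 0.5.

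The rises were led by 3 members of similar size. Mrpl50, a mitochondria-specific protein of the large subunit (chr4:49512596-49521093), had 31.1 to 53.0 CPM in Cort_CON (median 39.8) and 23.4 to 38.7 CPM in EtOH_CON (median 31.0). Its log2 fold change was 0.39 ± 0.08 (SE, adjusted p = 9.41e-05), and all 14 Cort_CON libraries exceeded the EtOH_CON mean although the groups overlapped. Mrps24, the mitochondrial relative of bacterial protein S3 at the entry of the message channel (chr11:5703983-5715680), had 45.5 to 77.2 CPM in Cort_CON (median 60.5) and 37.7 to 52.6 CPM in EtOH_CON (median 49.5). It rose by 0.38 ± 0.08 on the log2 scale (adjusted p = 0.000177), with 13 of 14 libraries above the EtOH_CON mean. The exons of Mrps24 overlap those of Urgcp on the same strand. Urgcp itself had a log2 fold change of -0.20 (adjusted p = 0.0552).

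Mrps30 keeps a small-subunit symbol but encodes a protein of the large subunit (chr13:118378381-118387252). It had 33.9 to 57.8 CPM in Cort_CON (median 45.3) and 31.3 to 40.1 CPM in EtOH_CON (median 34.4), a log2 fold change of 0.37 ± 0.08 (adjusted p = 0.000298). Mrpl38, a mitochondria-specific protein of the central protuberance of the large subunit, averaged 32.5 ± 3.69 CPM in Cort_CON and 26.4 ± 2.17 CPM in EtOH_CON, and all 14 treated libraries lay above the vehicle mean (0.30 ± 0.06, adjusted p = 0.000137). Mrpl32, known in mouse to be processed by the m-AAA protease before it joins the ribosome, averaged 32.2 ± 4.94 CPM in Cort_CON and 26.2 ± 3.15 CPM in EtOH_CON (0.29 ± 0.08, adjusted p = 0.00422). Its call was lost with library totals only (adjusted p = 0.0659). The other members that rose were Mrpl1, Mrpl2, Mrpl15, Mrpl35, Mrpl43, Mrpl45, Mrpl55, Mrps10, Mrps21, Mrps25 and Mrps34, with log2 fold changes of 0.23 to 0.28. Without EtOH_CON p01, the calls of Mrps10, Mrps21 and Mrps34 were lost. With library totals only, those of Mrpl1, Mrpl15, Mrpl35, Mrps10, Mrps21, Mrps25 and Mrps34 were lost. Over the 13 settings run, the test as run included, Mrps10 was called in 8 and Mrps21 in 9.

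Only 2 members fell, in the test as run. Mrps12, the relative of bacterial protein S12 at the decoding centre of the small subunit (chr7:28739641-28741820), had 35.8 to 59.8 CPM in Cort_CON (median 42.8) and 50.2 to 63.9 CPM in EtOH_CON (median 54.0). It fell by 0.35 on the log2 scale (log2 fold change -0.35 ± 0.08, adjusted p = 0.000326), with 13 of 14 Cort_CON libraries below the EtOH_CON mean. Mrpl44, a large-subunit protein with a ribonuclease III-like fold whose mutation in humans causes cardiomyopathy (chr1:79776018-79781445), had 14.3 to 25.6 CPM in Cort_CON (median 19.1) and 17.0 to 33.8 CPM in EtOH_CON (median 23.7). Its log2 fold change was -0.34 ± 0.11 (adjusted p = 0.00715). An exon of Wdfy1 overlaps Mrpl44 on the other strand, and Wdfy1 had a log2 fold change of -0.04 (adjusted p = 0.872).

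**Figure D3:**
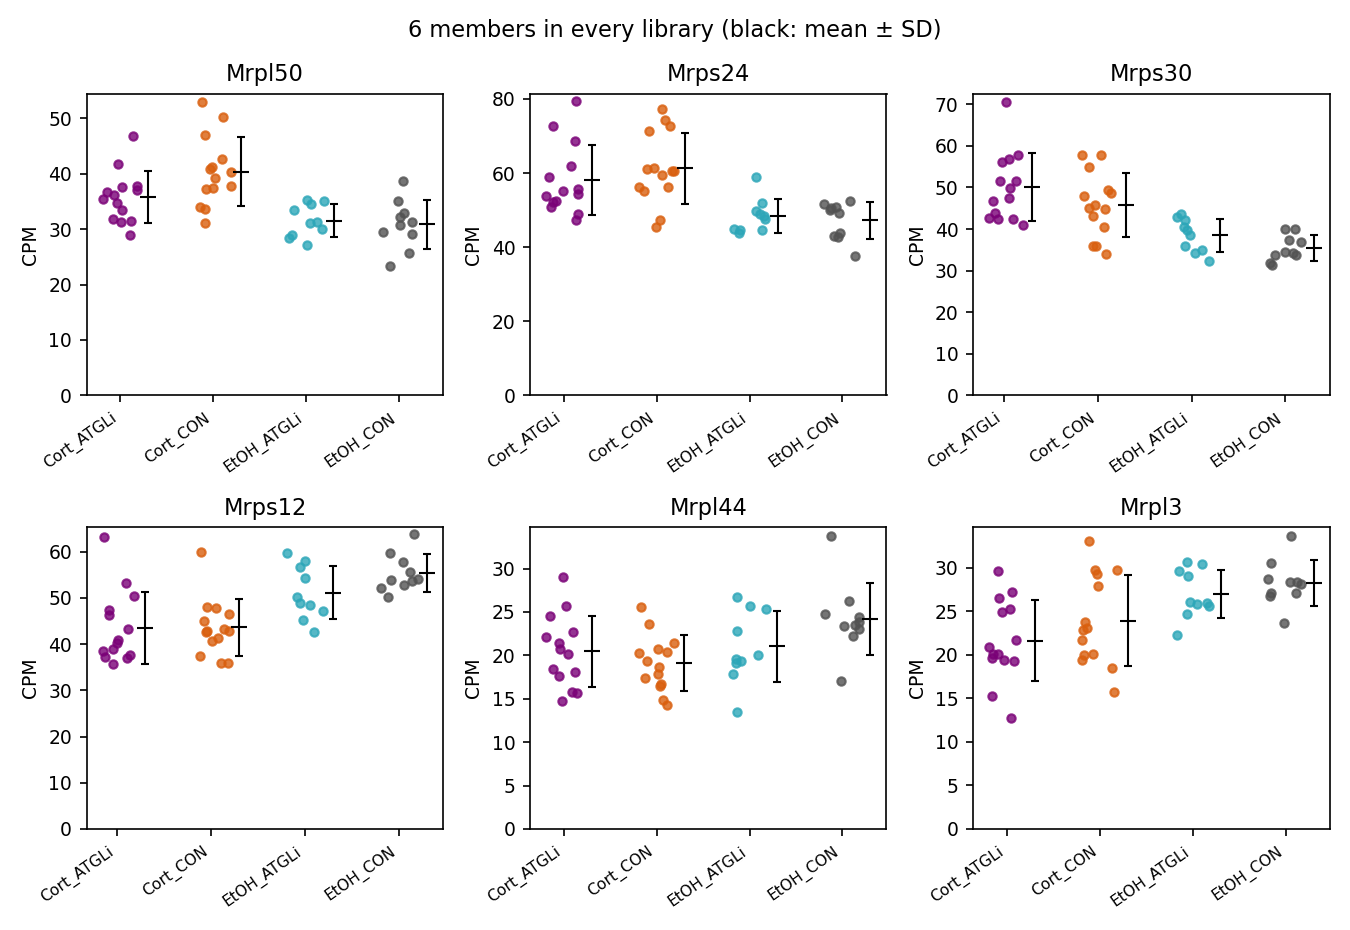
CPM of Mrpl50, Mrps24, Mrps30, Mrps12, Mrpl44 and Mrpl3 in each library of the 4 groups; black marks are mean ± SD, and axes start at 0. Mrpl50, Mrps24 and Mrps30 sit higher and Mrps12 lower in Cort_CON than in EtOH_CON, and the groups overlap in each panel.

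The direction of the smaller changes depended on the scaling. With library totals only, the median over all tested genes in Cort_CON against EtOH_CON was itself -0.11 on the log2 scale. Relative to the median of all genes, the member median stood 0.12 higher with TMM scaling and 0.11 higher with library totals. Against EtOH_CON, the 5 nondiabetic Cort_CON mice alone gave 7 members past the threshold (6 higher, 1 lower), in a smaller group in which 23.4% of all genes passed. Mrpl32, Mrps30 and Mrpl44 missed the threshold there, with adjusted p of 0.0754, 0.0512 and 0.164.

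On the atglistatin diet, too, corticosterone moved a minority of the members. In Cort_ATGLi against EtOH_ATGLi, 10 of the 78 members rose and 2 fell, which is 15.4% of them. Of all tested genes, 30% passed, 15% higher and 15% lower. The member median was 0.08 and 51 members had a positive value. With library totals only, 7 members rose and 5 fell, and the share of all genes with that scaling is not given here. The calls of Mrpl10, Mrpl15 and Mrps26 were lost with it. Without EtOH_ATGLi p13, the calls of Mrpl15 and Mrps26 were lost.

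Mrps30 led the rises again, with 41 to 70.6 CPM in Cort_ATGLi (median 48.7) and 32.3 to 43.5 CPM in EtOH_ATGLi (median 39.1). Its log2 fold change was 0.38 ± 0.08 (adjusted p = 0.000301), and all 14 Cort_ATGLi libraries exceeded the EtOH_ATGLi mean. Mrps34, a mitochondria-specific small-subunit protein, averaged 45.6 ± 8.78 CPM in Cort_ATGLi and 36.7 ± 2.70 CPM in EtOH_ATGLi (0.31 ± 0.09, adjusted p = 0.00785). Its exons overlap those of Nme3 on the same strand, which averaged 1.21 CPM with a log2 fold change of -0.05 (adjusted p = 0.904). They also overlap Mapk8ip3 on the other strand, which was higher (0.46, adjusted p = 0.0209) at a mean of 3.88 CPM, and reads of these genes and Mrps34 cannot be told apart where they overlap, for Mapk8ip3 unless the counting used strand. Mrpl55, the relative of bacterial L31, averaged 53.8 ± 7.80 CPM in Cort_ATGLi and 44.6 ± 4.55 CPM in EtOH_ATGLi (0.27 ± 0.08). Mrpl1, the protein of the mobile stalk beside the exit site, averaged 26.9 ± 5.06 CPM in Cort_ATGLi and 22.2 ± 1.86 CPM in EtOH_ATGLi (0.27 ± 0.09). Mrps24 averaged 58.0 ± 9.45 and 48.3 ± 4.57 CPM in the same groups (0.26 ± 0.08).

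Mrpl3, a large-subunit protein near the peptidyl transferase centre (chr9:105053239-105079888), had the largest fall on the atglistatin diet. It had 12.8 to 29.6 CPM in Cort_ATGLi (median 20.5) and 22.3 to 30.6 CPM in EtOH_ATGLi (median 26.0), a log2 fold change of -0.32 ± 0.10 (adjusted p = 0.0127). The exons of Mrpl3 overlap those of Gm38077 on the same strand, which averaged 4.21 CPM with a log2 fold change of 0.05 (adjusted p = 0.8715). On the control diet the value of Mrpl3 was -0.24 ± 0.10 (adjusted p = 0.0564), just outside the threshold. Over the 13 settings run, Mrpl3 was called there in 5. These were library totals only, limma voom, only the groups compared, without Cort_ATGLi p41 and without EtOH_ATGLi p13. Mrps12 fell by 0.23 on the log2 scale (adjusted p = 0.0206), with 12 of 14 Cort_ATGLi libraries below the EtOH_ATGLi mean. This call missed the threshold with the replicate number as a block (adjusted p = 0.0735) and held under the other settings. Mrpl44, which fell on the control diet, had a log2 fold change of -0.04 ± 0.11 here (adjusted p = 0.824).

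The comparisons on the 2 diets share no library. They had 8 rising members in common (Mrpl1, Mrpl2, Mrpl15, Mrpl38, Mrpl55, Mrps24, Mrps30 and Mrps34), 50.0% of those on the control diet and 80.0% of those on the atglistatin diet. Over all tested genes, the shared rises were 65.2% of those on the control diet and 82.4% of those on the atglistatin diet. Mrps12 was the one member that fell on both in the test as run. Of the 78 members, 44 (56.4%) had a positive and 14 (17.9%) a negative log2 fold change on both diets, against 41.1% and 41.5% of all tested genes. The absolute value was larger on the control diet for 51 members (65.4%), against 61.1% of all tested genes. No member passed the test of the difference between diets, so a call on one diet and not on the other does not show a difference.

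**Figure D4:**
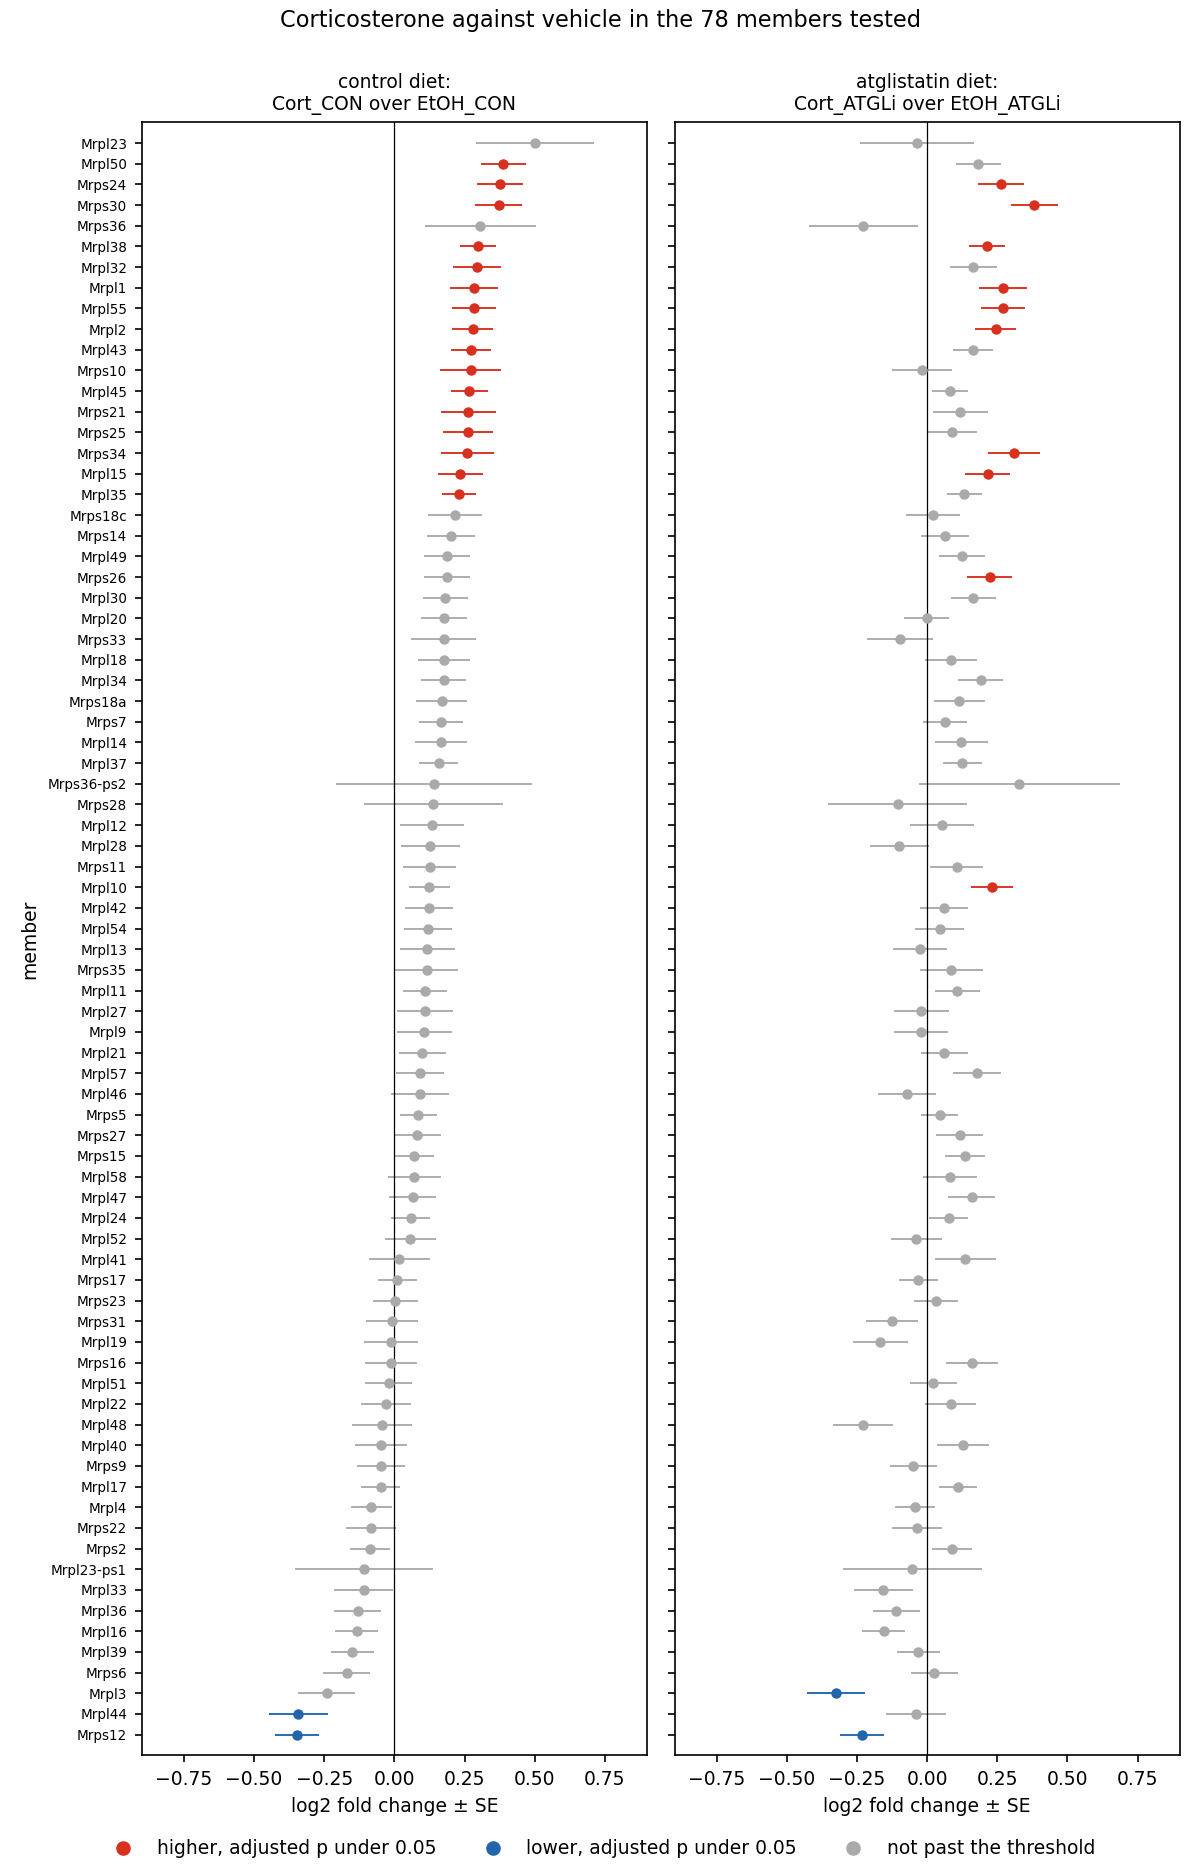
Log2 fold change ± SE of the 78 tested members for corticosterone against vehicle, on the control diet (left) and the atglistatin diet (right), ordered by the left panel; red points rose, blue points fell, grey points missed the threshold. On the left 16 members rose and 2 fell, and on the right 10 rose and 2 fell. Most members lie right of 0 in both panels with the TMM scaling plotted. With library totals only, the member median on the left was -0.0009, and that of all tested genes was negative too.

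The changes were spread over both subunits. Of 50 tested large-subunit members, 11 rose and 1 fell on the control diet (median log2 fold change 0.12), and 7 rose and 1 fell on the atglistatin diet (0.08). Of 25 tested small-subunit members, 5 rose and 1 fell on the control diet (0.12), and 3 rose and 1 fell on the atglistatin diet (0.06). Among the 30 large-subunit proteins with a bacterial counterpart, 6 rose on the control diet, and among the 18 mitochondria-specific ones 4 rose and 1 fell. The small subunit gave 3 rises and 1 fall among 16 proteins with a counterpart and 2 rises among 9 without.

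Mrpl12, the stalk protein that recruits translation factors and has also been reported to bind the mitochondrial RNA polymerase, averaged 116.4 ± 26.1 CPM in Cort_CON and 106.0 ± 15.2 CPM in EtOH_CON (0.13 ± 0.11, adjusted p = 0.367). Mrps18a had a log2 fold change of 0.17 ± 0.09 (adjusted p = 0.138) and Mrps18c of 0.21 ± 0.10 (adjusted p = 0.0711) on the control diet. The 3 most abundant members also missed the threshold there, with 0.12 for Mrpl42 (adjusted p = 0.265), -0.11 for Mrpl33 (adjusted p = 0.440) and 0.18 for Mrpl34 (adjusted p = 0.0796, and 0.0184 without EtOH_CON p01). With library totals only, Mrpl33 fell by 0.23 (adjusted p = 0.0285).

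Of the 21 members that passed on either diet, 6 have an exon that overlaps another counted gene (Mrpl3, Mrpl43, Mrpl44, Mrps24, Mrps25 and Mrps34). Of these 6, 3 overlap a gene on the same strand (Mrpl3 with Gm38077, Mrps24 with Urgcp and Mrps34 with Nme3), which counting by strand would not separate. For overlaps on the other strand, whether the counting used strand is not stated in the sources used here. The values of these 6 are therefore less certain than those of the other 15. Mrpl46 and Mrps11, which lie head to head and overlap each other, had log2 fold changes of 0.09 and 0.13 on the control diet and neither passed.

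Other genes of mitochondrial translation were taken in lists by function. The counts of these lists stand beside 18.9% higher and 19.5% lower of all genes on the control diet, and 15% each way on the atglistatin diet. Except for Dap3, results with library totals only are not given for these lists. Of 5 ribosomal proteins without an Mrp symbol, Dap3, a GTP-binding small-subunit protein, rose on both diets. It averaged 49.8 ± 6.39 CPM in Cort_CON and 44.2 ± 4.37 CPM in EtOH_CON (0.17 ± 0.07, adjusted p = 0.0350), and 51.5 ± 4.56 CPM in Cort_ATGLi and 45.1 ± 4.10 CPM in EtOH_ATGLi (0.19 ± 0.07, adjusted p = 0.0251). Ptcd3, Chchd1, Aurkaip1 and Gadd45gip1 did not pass on either diet, with log2 fold changes of -0.07, 0.19, 0.13 and 0.09 on the control diet. The call for Dap3 was lost on both diets with library totals only (adjusted p = 0.570 and 0.127). On the control diet it was also lost when only the compared groups were fitted (adjusted p = 0.0883) and with the nondiabetic mice alone (adjusted p = 0.0777). With the replicate number as a block the Dap3 call was lost on both diets, as given in the last section.

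Among 28 genes that charge or modify mitochondrial tRNAs, 2 rose and 5 fell on the control diet and 1 rose and 2 fell on the atglistatin diet. Of all genes tested, 38.4% and 30% passed in either direction on these diets. The 19 aminoacyl-tRNA synthetases among the 28 gave 1 rise and 3 falls on the control diet and 1 rise and 2 falls on the atglistatin diet. Kars, which encodes both the cytosolic and the mitochondrial lysyl enzyme, rose by 0.51 ± 0.06 on the control diet (adjusted p = 2.19e-10) and by 0.38 ± 0.06 on the atglistatin diet (adjusted p = 8.96e-07). Iars2, the mitochondrial isoleucyl enzyme, fell by 0.23 on the control diet (adjusted p = 0.00337), and Cars2, the cysteinyl enzyme, fell by 0.44 on the atglistatin diet (adjusted p = 0.000523). A list of translation factors and related genes, such as Lrpprc, which stabilises mitochondrial messages, and Oxa1l, which inserts new proteins into the inner membrane, had 17 genes tested. Of these, 3 fell on the control diet and 1 on the atglistatin diet, and none rose. The 10 tested initiation, elongation, release and recycling factors among them gave 2 of these falls on the control diet and 1 on the atglistatin diet. Gfm1, the elongation factor that moves the ribosome along the message, averaged 35.6 ± 5.43 CPM in Cort_CON and 44.4 ± 6.02 CPM in EtOH_CON (-0.32 ± 0.08, adjusted p = 0.000798). Guf1, a back-translocation factor, had -0.31 ± 0.11 (adjusted p = 0.0180) there and -0.29 ± 0.11 (adjusted p = 0.0364) on the atglistatin diet.

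Genes of ribosome assembly, rRNA modification and mitochondrial RNA processing gave 4 rises and 3 falls among 30 on the control diet and 1 rise and 2 falls on the atglistatin diet. The shares of all genes past the threshold there were 38.4% and 30%. Mrm1, a methyltransferase of the large mitochondrial rRNA, fell by 0.61 on the control diet (adjusted p = 9.47e-05) and by 0.44 on the atglistatin diet (adjusted p = 0.00539). Fastk, which encodes a mitochondrial RNA-binding protein, rose by 0.18 ± 0.05 on the control diet (adjusted p = 0.00358). Rexo2, a mitochondrial oligoribonuclease, fell by 0.24 on the atglistatin diet (adjusted p = 0.0111). Of 17 regulators of mitochondrial transcription and biogenesis, 3 rose and 2 fell on the control diet and 1 rose and 2 fell on the atglistatin diet. Ppargc1b, a coactivator of nuclear genes for mitochondria, averaged 10.8 ± 1.83 CPM in Cort_CON and 18.9 ± 4.11 CPM in EtOH_CON (-0.81 ± 0.11, adjusted p = 7.95e-09), and it fell by 0.74 on the atglistatin diet (adjusted p = 1.62e-07). Nrip1, a corepressor, rose by 0.46 ± 0.14 on the control diet (adjusted p = 0.00966), and Esrra, a nuclear receptor that acts with these coactivators, fell by 0.28 on the atglistatin diet (adjusted p = 0.0290).

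Of 15 listed genes of the mitochondrial genome, only 11 were in the count table, among them mt-Atp6 at group means of 0.109 to 0.319 CPM. Of the 10 tested, 4 rose on the control diet and 2 on the atglistatin diet, and none fell. The polyadenylated mt-Nd5 message rose by 0.30 ± 0.08 on the control diet (adjusted p = 0.00137) and by 0.24 ± 0.08 on the atglistatin diet (adjusted p = 0.0129). The value of mt-Nd6, on the opposite strand to mt-Nd5, was 1.23 ± 0.20 on the control diet (adjusted p = 2.59e-06) and 0.99 ± 0.20 on the atglistatin diet (adjusted p = 0.000140). In Cort_CON mt-Nd6 averaged 22.4 CPM and mt-Nd5 6407.3 CPM. Whether the counting used strand is not stated, so the mt-Nd6 value is less certain.

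**Figure D5:**
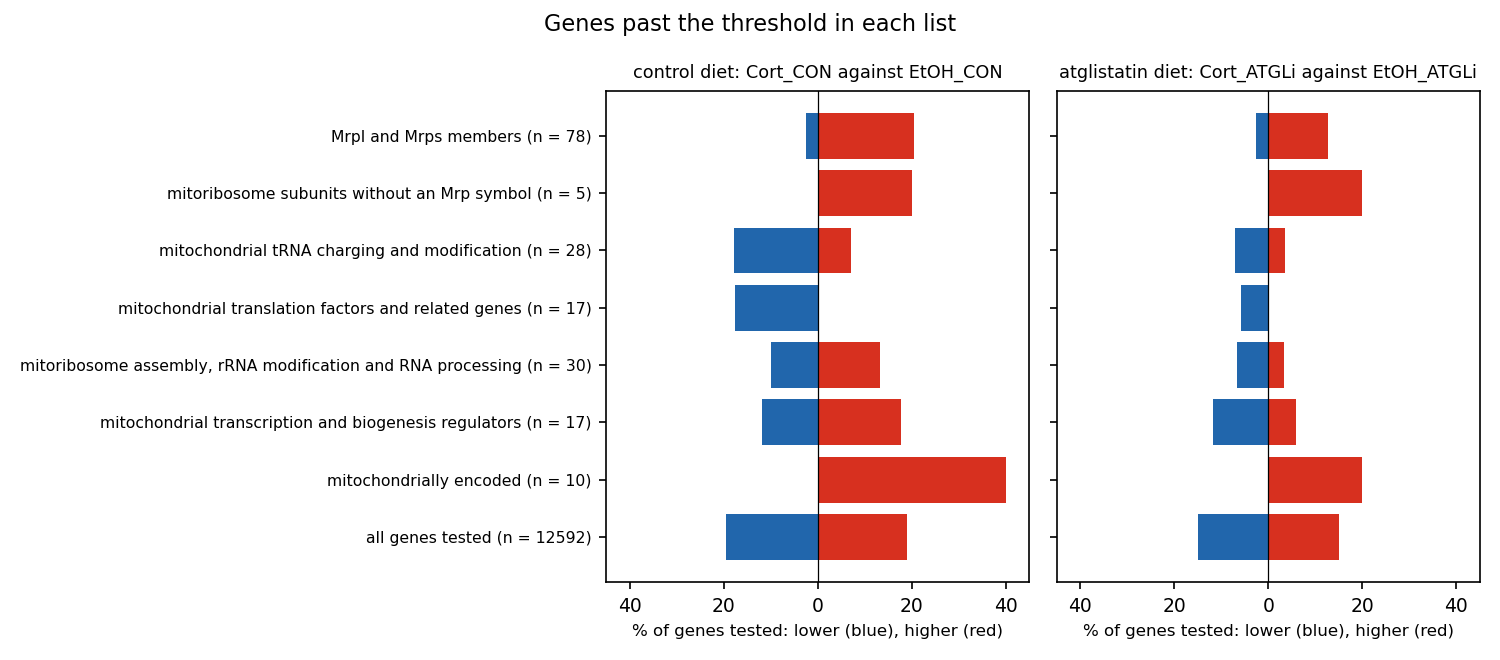
Percentage of tested genes past the threshold in each list for corticosterone against vehicle, on the control diet (left panel) and the atglistatin diet (right panel); red bars to the right are rises and blue bars to the left are falls. With the TMM scaling plotted, the Mrpl and Mrps members lean to the right (16 rises and 2 falls of 78 on the control diet). Rises and falls are nearly equal over all 12592 genes with that scaling. With library totals only, the members gave 8 rises and 11 falls on the control diet. The median of all tested genes was negative with library totals only, and their shares of rises and falls are not given here.

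Atglistatin alone did not move the members past the threshold. In EtOH_ATGLi against EtOH_CON edgeR called none of the 78, beside 0.0238% of all genes, and DESeq2 and limma voom called none. At an unadjusted p under 0.05 in edgeR there were 1 higher and 2 lower, 3.85% of the members beside 6.66% of all genes. In Cort_ATGLi against Cort_CON edgeR called none, beside 1.6% of all genes. At an unadjusted p under 0.05 in edgeR there were 10 members, all lower. These are 12.8% of the members, beside 12.4% of all genes, of which 774 were higher and 786 lower. These counts are with TMM scaling, and those with library totals only are not given here. With TMM scaling the members summed to 3662 CPM in Cort_ATGLi and 3834 CPM in Cort_CON on average. With library totals only the sums were 3644 and 3637 CPM, so the lower direction may depend on the scaling, which was not tested. DESeq2 called 2 of the 10 members lower and limma voom 1. Mrpl45, which ties the large subunit to the inner membrane, had a log2 fold change of -0.20 ± 0.06 (adjusted p = 0.0615). Mrps33, a mitochondria-specific small-subunit protein, had -0.36 ± 0.11 (adjusted p = 0.0627). Mrpl48, a protein of the large subunit, had -0.32 ± 0.10 (adjusted p = 0.0823). These 3 members were picked after their values were seen.

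The interaction of corticosterone with diet was past the threshold for no member in edgeR, DESeq2 or limma voom, beside 0.0397% of all genes. At an unadjusted p under 0.05 in edgeR there were 2 members (2.56%), beside 5.52% of all genes. Within Cort_CON, diabetic against nondiabetic mice (9 and 5) gave no member and 0% of all genes with edgeR. At an unadjusted p under 0.05 in edgeR it gave 1 member (1.28%), beside 4.96% of all genes. DESeq2 and limma voom called no member in that comparison either. Within Cort_ATGLi, the slope on log2 insulin was past the threshold for no member with edgeR, DESeq2 or limma voom, beside 0.103% of all genes. There, 8 members (10.3%) had an unadjusted p under 0.05 in edgeR, beside 9.4% of all genes. The slopes were positive for 67 of the 78 members with TMM scaling, against 49.3% of all genes. With library totals only they were positive for 48 members, and the share of all genes is not given here. Cort_ATGLi p41 had the lowest insulin of the group (2.19 in the labels' unit), the lowest member sum (3098 CPM) and the highest TMM factor (1.2244). The count of positive slopes without p41 is not given here, so its weight in these counts is not known.

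Members varied together from mouse to mouse within groups. Over the 48 libraries, with each group's mean removed, the median Pearson r of log2 CPM between pairs of the 72 tested members with at least 10 CPM was 0.482, and 93.5% of the pairs were positive. Without that limit the median over the 78 tested members was 0.436. Pairs among 575 genes of at least 10 CPM, taken at even steps down the table, had a median of 0.00534. With library totals only the median was 0.296 for the 72 members and 0.0691 for the 575 genes. Co-variation was not particular to the members, since pairs of the 78 cytosolic ribosomal protein genes had a median of 0.716 with TMM scaling. The libraries are shared by every pair, as are depth and scaling, so this is a description. Mrpl33, Mrpl54, Mrpl18 and Mrpl42 followed the mean of the other members most closely, with r of 0.947, 0.918, 0.916 and 0.911. Mrps2, Mrps28 and Mrps5 followed it least, with -0.0775, 0.00563 and 0.0765. In Cort_ATGLi p24, 71 of the 72 members lay above their group mean, and in Cort_CON p45 8 did.

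The spread of a member between mice was small. The median coefficient of variation of the tested members was 17.2% in Cort_ATGLi, 15.8% in Cort_CON, 10.2% in EtOH_ATGLi and 10.9% in EtOH_CON. Over all tested genes it was 22.1%, 22.3%, 18.2% and 19.9% in the same groups. The 2 sets were not matched for level, and the median member had 36.7 CPM against 8.24 CPM for all tested genes. The lower spread of the members therefore cannot be told apart from their higher level.

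Promoter windows were compared because nuclear genes of mitochondria are known targets of the factors GABPA, NRF1 and YY1. RefSeq windows from 250 bases before to 50 bases after the start (GRCm38.p6) were matched by symbol to 69 of the 80 members. The ETS motif bound by GABPA, CCGGAAG on either strand, was in 26 of the 69 (37.7%) and in 20.0% of 9523 tested genes with a window. Over all 27025 genes with a window it was in 9.93%. The NRF1 core GCGCATGCG was in 7 members (10.1%), against 4.14% of tested genes and 1.95% of all genes. The YY1 motif AAGATGGCG was in 8 members (11.6%), against 3.65% and 1.64%. At least 1 of these was in 52.2% of the members and 25.8% of the tested genes. The GC box GGGCGG was less frequent in the members (49.3%) than in tested genes (68.7%). Members that rose on either diet held the ETS motif in 3 of 15 windows and the other members in 23 of 54. The same split gave 2 of 15 and 5 of 54 for the NRF1 core, and 2 of 15 and 6 of 54 for the YY1 motif. For the GC box it gave 7 of 15 and 27 of 54. None of these splits was tested, and 15 windows are few.

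The windows of 5 members named above are shown as examples, 5′ to 3′ on the gene's strand, with the 3 motifs in capitals. Mrps24 (chr11:5707652-5707951, minus strand) holds the YY1 motif. Mrpl32 (chr13:14612988-14613287, minus strand) has 3 matches to the NRF1 core, 2 of which read the same palindromic stretch on opposite strands. Mrps12 (chr7:28741772-28742071, minus strand) and Mrpl3 (chr9:105053018-105053317, plus strand) hold the ETS motif. Mrpl50 (chr4:49521034-49521333, minus strand), with the largest rise on the control diet, holds none of the 3 in this window.
Mrps24: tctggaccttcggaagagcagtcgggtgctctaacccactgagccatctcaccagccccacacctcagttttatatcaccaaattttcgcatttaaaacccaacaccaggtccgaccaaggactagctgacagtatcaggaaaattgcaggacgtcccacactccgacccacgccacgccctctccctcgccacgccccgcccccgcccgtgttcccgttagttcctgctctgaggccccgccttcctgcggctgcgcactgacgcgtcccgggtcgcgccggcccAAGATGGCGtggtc
Mrpl32: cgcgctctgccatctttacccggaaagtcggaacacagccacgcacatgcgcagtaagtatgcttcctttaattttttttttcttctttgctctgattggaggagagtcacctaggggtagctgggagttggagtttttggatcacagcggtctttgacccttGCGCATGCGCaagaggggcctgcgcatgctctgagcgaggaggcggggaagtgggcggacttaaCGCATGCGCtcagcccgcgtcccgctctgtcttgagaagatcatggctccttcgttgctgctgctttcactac
Mrps12: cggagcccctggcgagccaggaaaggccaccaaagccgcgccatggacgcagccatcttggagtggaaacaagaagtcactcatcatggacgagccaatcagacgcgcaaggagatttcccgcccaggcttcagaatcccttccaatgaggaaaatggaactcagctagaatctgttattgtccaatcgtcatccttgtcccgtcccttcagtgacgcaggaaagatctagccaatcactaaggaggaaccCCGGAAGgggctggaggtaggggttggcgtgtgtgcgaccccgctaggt
Mrpl3: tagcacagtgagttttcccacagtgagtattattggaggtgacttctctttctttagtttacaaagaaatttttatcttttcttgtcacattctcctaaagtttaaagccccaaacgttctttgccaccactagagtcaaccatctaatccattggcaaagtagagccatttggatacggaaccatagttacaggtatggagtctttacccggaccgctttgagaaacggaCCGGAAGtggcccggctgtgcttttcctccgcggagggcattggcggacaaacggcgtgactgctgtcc
Mrpl50: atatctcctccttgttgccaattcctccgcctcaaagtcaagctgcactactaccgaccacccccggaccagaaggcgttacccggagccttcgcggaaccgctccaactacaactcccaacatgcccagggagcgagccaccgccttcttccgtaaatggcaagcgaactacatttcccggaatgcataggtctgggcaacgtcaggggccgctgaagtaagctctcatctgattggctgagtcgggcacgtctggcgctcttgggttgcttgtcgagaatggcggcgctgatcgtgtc

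Markers of other cell types moved with corticosterone in the same libraries. Of 8 fibro-adipogenic markers, 7 fell on the control diet, and their summed level was 508.9 to 972.7 CPM in Cort_CON and 902.9 to 1336.0 CPM in EtOH_CON. All 4 tendon markers fell on both diets, with sums of 56.4 to 206.8 CPM in Cort_CON and 217.4 to 450.2 CPM in EtOH_CON. On the control diet 4 of 7 macrophage and leukocyte markers fell, and 4 of 5 erythroid markers rose. Slow-fibre markers gave 3 rises among 8, with sums of 963.9 to 2234.3 CPM in Cort_CON and 557.3 to 2152.7 CPM in EtOH_CON. Muscle fibre markers gave 5 rises and 1 fall among 10 on the control diet, endothelial markers 1 rise and 3 falls among 5, adipocyte markers 1 rise and 2 falls among 5, and satellite cell markers 2 rises and 1 fall among 4. On the atglistatin diet 8 of 8 fibro-adipogenic markers fell and 4 of 8 slow-fibre markers rose. There, 4 of 7 macrophage and leukocyte markers fell, but only 1 of 5 erythroid markers rose. Muscle fibre markers gave 4 rises and 1 fall among 10 on that diet, and endothelial markers 1 rise and 3 falls among 5. Adipocyte markers gave 1 rise and 0 falls among 5, and satellite cell markers 2 rises and 1 fall among 4. The part of these shifts in the member changes was not tested, and in whole muscle fewer cells of a type cannot be told apart from less RNA per cell.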

How the data were processed

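The authors deposited raw counts, whole-number read counts per gene, for 48 libraries. Per the labels' protocols these were 3′ libraries from a QuantSeq kit, read forward over 50 bp. The submitters' processing notes name the GRCm38 build, R 3.6.1 and DESeq2 1.24.0. Aligner, counter, strand setting and annotation were not given in the sources used here. In 47 libraries every count was even, for a reason not stated.

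Symbols came from GENCODE M21 by gene ID and matched 14094 of 14125 IDs. edgeR 4.0.16's filterByExpr (minimum count 10, minimum total 15) kept 12592 genes and removed 1533. Counts were scaled by TMM and tested two-sided with edgeR's quasi-likelihood fit of the 4 groups in R 4.3.3, with Benjamini-Hochberg adjustment over all genes tested and a threshold of 0.05. An adjusted p with no tool beside it is from this fit. The test code was checked on simulated data. A gene at 1 CPM rests on 10.45 to 24.03 counts per library, and p-values measure the spread between these libraries. Disease state was fitted with Cort_CON split by label, and insulin as a slope over the 14 Cort_ATGLi libraries.

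Named members followed a rule: up to 5 largest rises and falls per pairwise comparison (up to 3 elsewhere), the 3 highest and 3 lowest levels among tested members, the Mrps18 genes, Mrpl12, Mrps12, 5 subunits without an Mrp symbol, Fkbp5, and from each list up to 2 genes with the smallest p. Others, such as members named for overlap or co-variation and the lists of further calls, were chosen after their values were seen. The members and lists were chosen with earlier results of these data known. Motifs were searched in RefSeq promoter windows on both strands. Alternatives were library totals, DESeq2 1.42.0 and its size factors, limma 3.58.1 voom, no filter, only the groups compared, a replicate block, halved counts and single libraries left out; the last of these with EtOH_ATGLi p13, the nondiabetic subset, and library totals for co-variation were added after the data were examined. The authors' table of normalized values was not used.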

Additional observations from a re-analysis of the deposited data

Results flagged for a closer look

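Values of the named members and of the member sum were checked for a library far from the rest in the vehicle groups of 10. Chance flags about 1 in 20 such groups, and 4 of 54 were flagged. EtOH_CON p01 was the library in 3 of them. It had 24.8 CPM of Mrps34, where the other 9 libraries had 34.4 to 42.6 CPM, 21.1 CPM of Mrps18a, where the others had 28 to 35.7 CPM, and 176.9 CPM of Mrpl34, where the others reached 145 CPM. Without this library the Mrps34 rise on the control diet was no longer past the threshold, and Mrpl34 passed (log2 fold change 0.22, adjusted p = 0.0184). EtOH_ATGLi p09 had 42.2 CPM of Mrps34, where the other libraries had 32.4 to 37.6 CPM. No member passed the test of a difference between diets.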

How the results depend on the processing

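The total counts of members past the threshold for corticosterone against vehicle, in either direction, stayed within 1.5 times under every alternative but the nondiabetic Cort_CON mice alone, which gave 7 on the control diet, against 18 with all 14 mice. Their split did not. With library totals only there were 8 rises and 11 falls on the control diet, against 16 and 2. On the atglistatin diet there were 7 rises and 5 falls, against 10 and 2. The shares of all genes that rose and fell with library totals only are not given here. The median log2 fold change of the members on the control diet was -0.0009 with library totals only, against 0.12. The median of all tested genes was also lower with library totals only, as given above. In Cort_ATGLi against Cort_CON, where edgeR called 0, DESeq2 called 2, limma voom 1 and the replicate block 1, and leaving out single libraries gave 0 to 2 (1 without Cort_ATGLi p41, 2 without EtOH_CON p01). These were Mrpl45 and Mrps33 with DESeq2, Mrps33 with voom and the block, and Mrpl45 with or without Mrpl48 when a library was left out; the cause was not tested. The median r between members was 0.296 with library totals only, against 0.482. The member sums moved by less than 1 SD with library totals only. In EtOH_ATGLi against EtOH_CON, the interaction, disease state and insulin, no member passed under any alternative run.

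A count over all alternatives covers the values of members called and named by the rule in a comparison, and not the other called members. Of these values, 156 kept direction and side of the threshold, none changed sign, and 5 missed it in the same direction. They were Mrpl32 with library totals only, Mrpl32, Mrps30 (adjusted p = 0.0512) and Mrpl44 (adjusted p = 0.164) with the nondiabetic mice, and Mrps12 on the atglistatin diet with the replicate block (adjusted p = 0.0735). Some groups share replicate numbers in the labels. With the number as a replicate block, 16 members passed on the control diet and 10 on the atglistatin diet, and Dap3 missed the threshold on both (adjusted p = 0.194 and 0.152). Deviations of same-numbered libraries correlated at -0.0596 to 0.155 over 6 pairs, with 1 above 0.1. These values show no clear pairing, but 6 pairs are too few to settle whether the numbers mark a shared origin. Depth limits Mrps18b, Mrpl53 and the pseudogenes, which had few counts per library.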
